A study of Homo sapiens with 5 samples.

Results

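RNA recovered with HNRNPC from lysates of the triple-negative breast cancer cell line MDA-MB-231 was compared with the input of the same RNA immunoprecipitation (RIP). The comparison covered every gene listed in both RIP libraries with a mean of at least 1 FPKM (fragments per kilobase of transcript, scaled to the library's total) over the immunoprecipitate and the input. This left 10284 of the 11755 genes listed in both, out of 12497 genes listed anywhere in the series, and the other 1471 fell under that minimum. Each gene's value was the log2 ratio of immunoprecipitate FPKM + 1 over input FPKM + 1, a scale that understates the ratios of low genes.

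HNRNPC is an abundant nuclear RNA-binding protein of the heterogeneous nuclear ribonucleoprotein family. Its tetramers package nascent transcripts and bind stretches of uridine, found in introns, in antisense Alu elements and in 3' untranslated regions (3' UTRs), where it competes with splicing and polyadenylation factors. In RIP, RNA that stays with the protein in a native lysate is pulled down with an antibody on beads and sequenced, so a gene's level in the immunoprecipitate reflects recovery as well as abundance.

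The immunoprecipitate was made with an anti-HNRNPC antibody on magnetic beads from MDA-MB-231 lysate, and its input is the matching RIP input library. The series holds 3 further libraries of this line: si-LY6E-DT, transfected with a Smart Silencer against the noncoding RNA LY6E-DT, si-NC, its negative control, and a library labelled si-HNRNPC. The treatment text lists the silencers of LY6E-DT and HNRNPC in crossed order, and the library labels are followed here. The labels name no allele or transgene, and no time or dose. The treatment text also names IgG, but an IgG immunoprecipitate was not analysed here, so recovery through HNRNPC and recovery on beads alone cannot be told apart.

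Each group held 1 library. The ratios therefore have no replicate check and carry no error or p-value; enrichment or depletion means a ratio of at least 2-fold on the log2(FPKM + 1) scale, which is a rule of size. The depth is unknown. FPKM summed to 157407 in the immunoprecipitate and 272563 in the input, and to between 195575 and 227394 in the other 3 libraries. Mitochondrially encoded mRNAs took 9.05% of the FPKM sum in the immunoprecipitate and 29.8% in the input, against 7.20% to 9.92% in the other libraries. FPKM is a share of each library, so a lower share of 1 group of mRNAs and a higher share of the rest cannot be told apart. Between the RIP and the cell libraries, fewer cells of a type and less RNA per cell cannot be told apart either. Markers of the line were present in both RIP libraries: vimentin (VIM) was at 157 FPKM in the immunoprecipitate and 538 in the input, and the receptor kinase AXL at 351 and 165 FPKM. The receptors ESR1 and PGR, E-cadherin (CDH1) and 3 endothelial markers were not listed in any library, nor were the leukocyte markers PTPRC and CD3E. The luminal markers KRT8, ERBB2 and EPCAM summed to 4.35 FPKM in the immunoprecipitate and 31.6 in the input. The leukocyte markers CD14 and LYZ summed to 2.18 and 1.82 FPKM.

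HNRNPC mRNA itself (ENSG00000092199.17_4; chromosome 14, bases 21209136 to 21269494 of GRCh38, minus strand, protein-coding) was at 58.4 FPKM in the immunoprecipitate and 67.4 in the input, a log2 ratio of −0.20. The other levels were 40.1 FPKM (si-LY6E-DT), 48.8 FPKM (labelled si-HNRNPC) and 52.2 FPKM (si-NC). The mRNA of the targeted protein was thus neither enriched nor depleted, and its level in the library labelled si-HNRNPC was close to that in si-NC.

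Of the 10284 genes, 2486 (24.2%) were enriched in the immunoprecipitate and 3791 (36.9%) were depleted, while 4007 were neither. The median log2 ratio was −0.34, the middle 50% of genes lay between −1.55 and 0.95, and the full range ran from −5.78 to 6.27. At 4-fold, 956 genes (9.3%) were enriched and 1750 (17%) depleted. The split between directions depended on scale: 39.6% of called genes were enriched with FPKM as deposited, 50.8% after centring on the median, which shifts every ratio by 0.34, and 49.2% after quantile normalization. Ratios are read below against the median of −0.34. In genes listed in all 5 libraries, the median level of the 2368 enriched genes was 16.5 FPKM in the immunoprecipitate and 3.43 in the input, and it was 5.18 in si-LY6E-DT, 4.47 in the library labelled si-HNRNPC and 5.37 in si-NC. The immunoprecipitate was at least 2-fold above each of the 3 cell libraries in 1329 of these genes (56.1%), and the input at least 2-fold below all 3 in 204 (8.61%). For the 3693 depleted genes the medians were 2.16 FPKM in the immunoprecipitate and 12.8 in the input, against 11.4 to 14.5 in the cell libraries. There the immunoprecipitate was at least 2-fold below each cell library in 2689 genes (72.8%), and the input at least 2-fold above all 3 in 89 (2.41%). In the 3865 genes that were neither, the immunoprecipitate was above all 3 by this rule in 3.29% and below in 7.43%. For the input it was 1.01% above and 2.74% below. Calls rest on the same immunoprecipitate and input values, so these shares, and those of the extreme genes below, are in part fixed by the selection. The tables of the RIP and cell libraries list different sets of genes, so levels across them rest on FPKM alone.

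**Figure D1:**
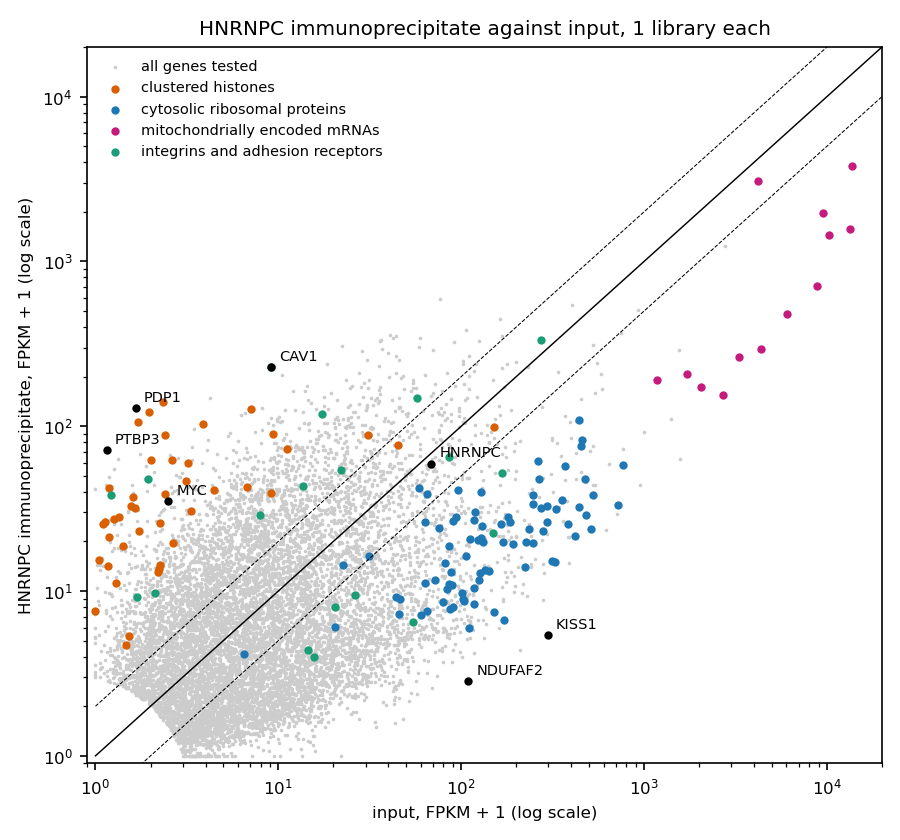
Level of each tested gene in the HNRNPC immunoprecipitate (y axis) against the input (x axis), in FPKM + 1 on log scales, 1 library each; the solid line marks equal values and the dashed lines 2-fold. Most clustered histones (40 of 42) lie above the lines, and most ribosomal protein (77 of 82) and mitochondrially encoded mRNAs (12 of 13) below them. PDP1 (127 FPKM in the immunoprecipitate, 0.656 in the input) and KISS1 (4.38 and 295 FPKM) lie at the extremes.

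At the edges of the rule, PARD6G (3.18 FPKM in the immunoprecipitate, 1.09 in the input) and HDAC9 (3.55 and 1.27) lay just inside 2-fold enrichment, and MTDH (122 and 60.5) and CEP41 (3.16 and 1.08) just outside it. EAPP (8.36 and 17.7 FPKM) and POLR2J2 (0.636 and 2.28) were just inside 2-fold depletion, and PCYOX1L (0.605 and 2.21) and YWHAQ (49.2 and 99.4) just outside. STK11IP (0.323 and 1.68 FPKM) and ZNF780B (1.20 and 0.810) just passed the minimum level, which MPPE1 (1.13 and 0.864) and GIN1 (0.639 and 1.36) just missed.

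Among genes with a mean of at least 5 FPKM in the pair, the highest ratio was that of PDP1 (ENSG00000164951.15_3), which encodes a phosphatase that activates the pyruvate dehydrogenase complex. It was at 127 FPKM in the immunoprecipitate and 0.656 in the input, a log2 ratio of 6.27, and at 11.7 in si-LY6E-DT, 11.95 in the library labelled si-HNRNPC and 6.03 in si-NC. The input was the lowest of the 5 libraries for this gene and the immunoprecipitate the highest. PTBP3 (ENSG00000119314.15_3), a polypyrimidine tract-binding protein that itself reads U-rich RNA, was at 70.7 FPKM in the immunoprecipitate and 0.150 in the input (log2 ratio 5.96), with 5.14 to 11.5 in the cell libraries. OCLN, the tight junction protein occludin, was at 48.2 FPKM in the immunoprecipitate and 0.183 in the input (log2 ratio 5.38), and at no more than 2.14 in any cell library. For OCLN the immunoprecipitate alone stood out, because the input lay among the cell libraries.

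Others of the 12 highest were ZC3HAV1L, an uncharacterised relative of the antiviral protein ZAP (62.2 FPKM in the immunoprecipitate and 0.335 in the input, log2 ratio 5.56), and ZNF460, a zinc finger protein (54.1 and 0.259 FPKM, 5.45). DPY19L1, a C-mannosyltransferase of the endoplasmic reticulum, was at 66.7 FPKM in the immunoprecipitate and 0.745 in the input. A further 4 were histones (HIST1H3B, HIST1H2AH, HIST1H3C and HIST1H4K, the last a near-identical copy), described with their class. NUDT4P1 (40.7 FPKM in the immunoprecipitate, listed at 0 in the input) is a near-identical copy of another gene, and ZC3H11A (42.8 and 0.136 FPKM) shares exons with a neighbour, so both are uncertain. KLHL11, an adaptor of ubiquitin ligases that takes the twelfth place when ZC3H11A is set aside, was at 42.4 FPKM in the immunoprecipitate and 0.215 in the input. Of the 12, 10 were listed in all 5 libraries; the immunoprecipitate was above all 3 cell libraries in 10 of these 10, and the input below all 3 in 7.

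At the other end was KISS1 (ENSG00000170498.8_2), the precursor of the secreted peptide kisspeptin, at 4.38 FPKM in the immunoprecipitate and 295 in the input, a log2 ratio of −5.78. Here the input was the highest of the 5 libraries, since KISS1 was at 27.5 FPKM in si-LY6E-DT, 87.5 in the library labelled si-HNRNPC and 24.6 in si-NC, and the immunoprecipitate was the lowest. Several of the lowest genes encode mitochondrial proteins. NDUFAF2 (ENSG00000164182.10_3), an assembly factor of respiratory complex I, was at 1.84 FPKM in the immunoprecipitate and 109 in the input (log2 ratio −5.27). The intermembrane-space protein CHCHD2 was at 7.84 and 278 FPKM (−4.98), and the mitochondrial ribosomal proteins MRPL54 and MRPL14 had log2 ratios of −4.85 and −4.76. The complex I subunit NDUFS5 (−4.71) and the cytochrome oxidase subunit COX6B1 (−4.70) belong to the same 12.

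The cysteine protease inhibitor CST4 differed in where its ratio came from. It was at 0.574 FPKM in the immunoprecipitate and 42.3 in the input, but also at only 0.551 in si-LY6E-DT, 2.44 in the library labelled si-HNRNPC and 0.539 in si-NC. Its low ratio thus went with a high input, not with an immunoprecipitate below the cells. SH3BGRL3 (3.23 FPKM in the immunoprecipitate, 117 in the input), the prefoldin subunit PFDN6 (1.59 and 68.4) and the ribosomal protein paralogue RPL36AL (22.4 and 616) completed the set with NME1-NME2, a readthrough model that shares its exons with NME1 and NME2 and is uncertain. ADRM1, a ubiquitin receptor of the proteasome, takes its place when it is set aside (3.01 and 100.3 FPKM). The immunoprecipitate was below all 3 cell libraries in 11 of the 12 lowest genes, and the input above all 3 in 7.

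**Figure D2:**
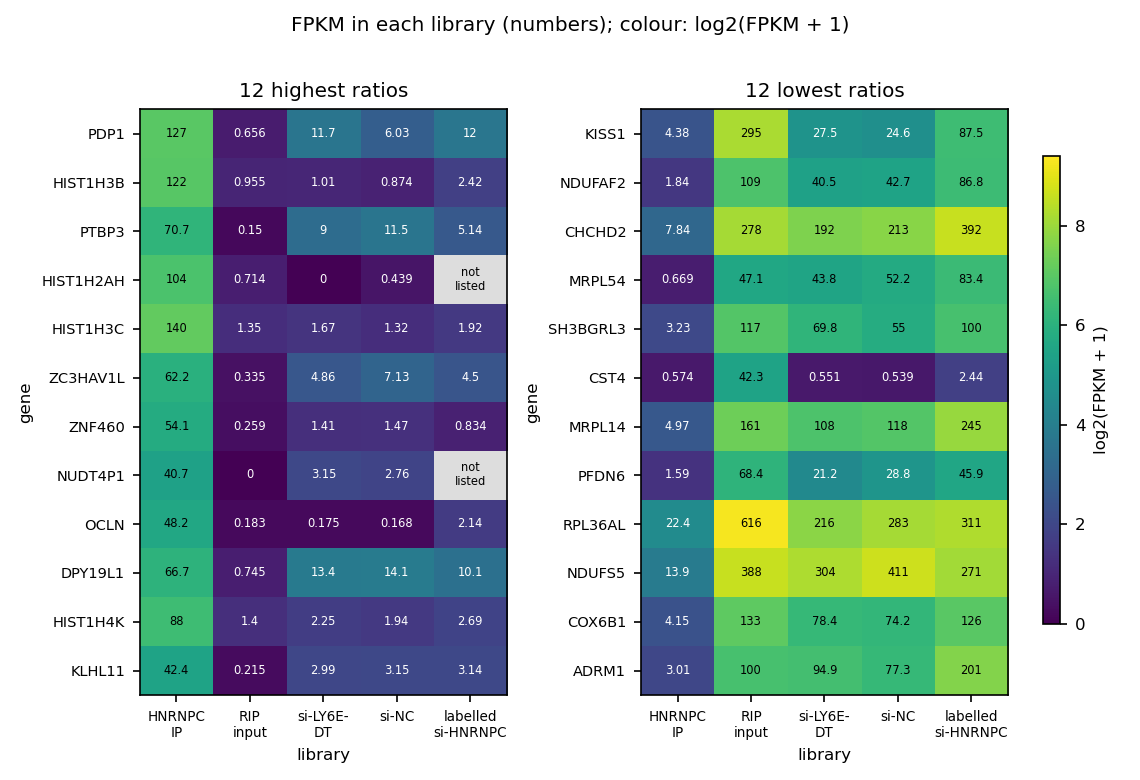
FPKM of the 12 genes with the highest (left panel) and the 12 with the lowest (right panel) log2 ratios among genes at a mean of 5 FPKM or more that share no exons with another gene; columns are the 5 libraries, numbers are FPKM and colour is log2(FPKM + 1). The immunoprecipitate column is the brightest on the left and the darkest or nearly so on the right, with CST4 the gene whose cell libraries are as low as its immunoprecipitate.

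The 3' UTRs of these genes show how far their uridine content differs, and the window around the longest uridine run of each is printed for that reason. All are annotated 3' UTR exons in the GENCODE 29 transcripts on GRCh38, read 5' to 3' on the strand of the gene with T for U, and the longest run is in capitals. The enriched PTBP3 (chr9:112223684-112223713, minus strand), ZC3HAV1L (chr7:139026253-139026282, minus strand), OCLN (chr5:69555257-69555286, plus strand) and DPY19L1 (chr7:34930364-34930393, minus strand) come first. KLHL11 (chr17:41853630-41853659, minus strand) is an enriched gene without a run of 5. The depleted KISS1 (chr1:204190444-204190473, minus strand), NDUFAF2 (chr5:61152961-61152990, plus strand), MRPL54 (chr19:3767426-3767455, plus strand) and CST4 (chr20:23685732-23685761, minus strand) follow.
PTBP3: atcaagggaTTTTTTTTTTTTgtattcccc
ZC3HAV1L: ttgcactcaTTTTTTTTTTTcacttaatat
OCLN: gtgtaTTTTTTTTTTTTTTTTTTTgagatg
DPY19L1: ctcctctttagTTTTTTTcttcctatttat
KLHL11: tgtcgataacttaTTTTctacatgaactga
KISS1: gcggggcagtgaacTTcagaccccaaagga
NDUFAF2: ttatggtcaaatcTTTTcatgtatatggat
MRPL54: cgagggcttgccgTTTTcccggaggacgtg
CST4: gctgcaggagtccTTTgttgctcagcaggg
The longest run had 12 bases in PTBP3, 11 in ZC3HAV1L, 19 in OCLN and 7 in DPY19L1, against 2 in KISS1, 4 in NDUFAF2, 4 in MRPL54 and 3 in CST4. The contrast was smaller for other genes at the extremes. The longest run had 6 bases in the enriched ZNF460 and 4 in KLHL11. Among the 12 lowest genes, MRPL14 held 1 run and RPL36AL 4 runs, the longest of 5 bases in both. PTBP3 held 18 runs of 5 or more U in a 3' UTR of 1606 bases and OCLN 26 in 4433 bases, while KISS1, NDUFAF2, MRPL54 and CST4 held none in 143, 82, 172 and 254 bases.

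Over the whole table, enriched genes had longer and more U-rich 3' UTRs than depleted genes. Runs of 5 or more U (TTTTT, counted as non-overlapping runs on the transcript strand only) were counted in 1 transcript per gene for 10125 genes with an annotated 3' UTR, of which 1933 held none. The median 3' UTR held 14 runs in 2736 bases in enriched genes and 1 run in 467 bases in depleted genes, with 5 runs in 1323.5 bases in genes that were neither. The GC content of the 3' UTR had a median of 36.2% in enriched and 49.6% in depleted genes, and the longest run a median of 9 and 5 bases. A run was absent from 84 enriched genes (3.45% of those with a 3' UTR) and from 1509 depleted genes (40.4%). At least 10 runs were present in 1704 enriched (70.0%) and 118 depleted genes (3.16%).

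The ratio moved with the number of runs over its whole range. In the 1933 genes without a run the median log2 ratio was −1.86, with 4.35% enriched and 78.1% depleted. The medians were −1.45 with 1 run (1301 genes), −0.90 with 2 to 3 (1703 genes) and −0.19 with 4 to 6 (1412 genes). They were 0.41 with 7 to 9 (998 genes), 1.07 with 10 to 19 (1759 genes) and 1.77 with 20 or more (1019 genes), where 75.8% were enriched and 2.45% depleted. Across the 10125 genes, which are not independent and share the 2 libraries, Spearman's rho between runs and log2 ratio was 0.70 and Pearson's r 0.57, the highest rho of 16 transcript features computed. For other features rho was 0.60 for 3' UTR length, 0.59 for the longest U run, 0.57 for the number of A runs of 5 or more in the 3' UTR, 0.56 for transcript length, −0.55 for transcript GC content, 0.45 for gene span and 0.12 for the number of exons.

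**Figure D3:**
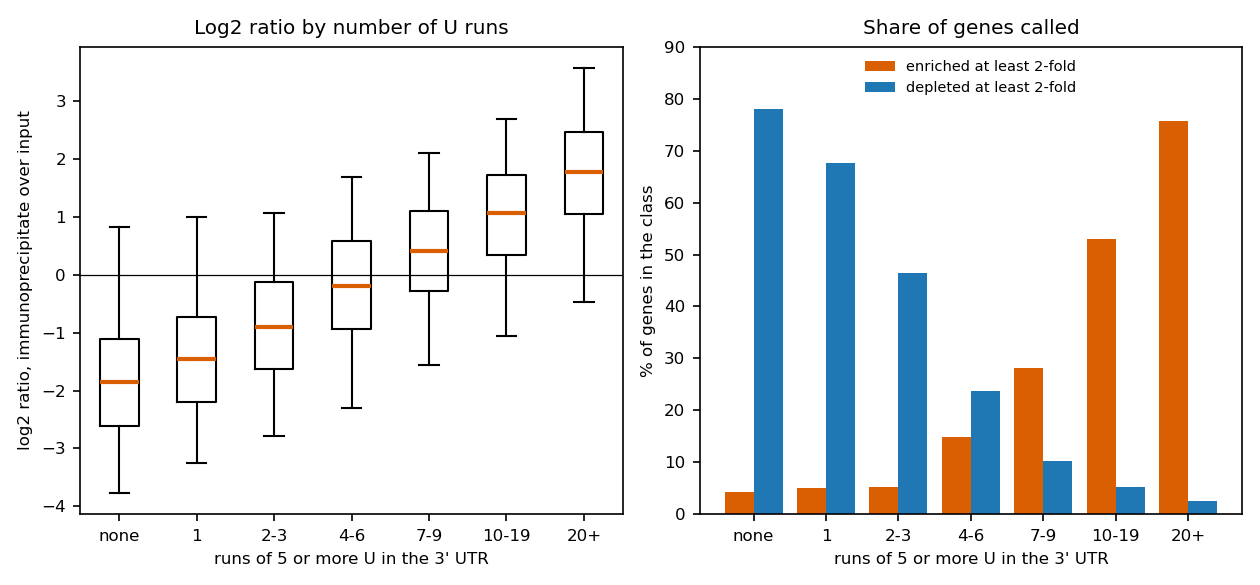
Left, log2 ratio of immunoprecipitate over input by the number of runs of 5 or more U in the 3' UTR (boxes span the middle 50%, orange lines medians, whiskers the 5th and 95th percentiles across genes). Right, share of each class enriched (orange) or depleted (blue) at least 2-fold: medians climb from −1.86 without a run to 1.77 with 20 or more.

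Because longer 3' UTRs hold more runs, the density of runs was also compared among 3' UTRs of like length. In 4 classes of 3' UTR length with equal numbers of genes (9076 genes of 200 bases or more), rho between U runs per kilobase and the log2 ratio was 0.31, 0.55, 0.57 and 0.57 in order of length. In the longest class (2660 bases or more), the third of genes with the highest density had a median log2 ratio of 1.93 and 79.4% enriched, and the third with the lowest density 0.17 and 23.9%. For the density of runs of the other bases in that class rho was 0.19 (A), −0.30 (C) and −0.31 (G). Composition moved along with the runs, with rho of −0.53 for 3' UTR GC content in that class. In 4 such classes of 3' UTR GC content from low to high, rho of the number of U runs with the log2 ratio was 0.67, 0.60, 0.61 and 0.54. There rho was 0.64, 0.53, 0.53 and 0.49 for 3' UTR length, nearly as high, and 0.16, 0.29, 0.32 and 0.38 for U runs per kilobase. The parts of length, base composition and U runs were not tested apart from each other.

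The relation to U runs was seen against the cell libraries too. With the 3 cell libraries in place of the input, rho between U runs and the log2 ratio of the immunoprecipitate was 0.67 (si-LY6E-DT), 0.71 (labelled si-HNRNPC) and 0.65 (si-NC). For the input over the same cell libraries it was −0.07, 0.09 and −0.14. With U runs per kilobase, rho for the input was 0.02, 0.18 and −0.06 in the same order. With 3' UTR GC content it was −0.05, −0.29 and 0.07, so the input differed most in composition from the library labelled si-HNRNPC. The input differed from the cells in other features. For transcript length, rho of the input over the cell libraries was −0.31, −0.03 and −0.31 in the same order. For the immunoprecipitate over them it was 0.40, 0.53 and 0.41. With the number of exons, rho was −0.34, −0.08 and −0.32 for the input and −0.05, 0.09 and −0.05 for the immunoprecipitate. These contrasts share the immunoprecipitate or the input, so their values are set side by side as descriptions only. In 179 genes with a single exon, without histones, mitochondrially encoded genes and copies, rho between U runs and the ratio over the input was 0.69.

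The mRNAs of clustered histones, which are made in S phase from intronless genes and end in a stem-loop in place of a poly(A) tail, were the list with the highest median. Of 42 tested, 40 were enriched and none depleted, against 24.2% and 36.9% of all genes. Their median log2 ratio was 3.81, against −0.34 for all genes. Their FPKM summed to 1956 in the immunoprecipitate and 297 in the input, and to 129 in si-LY6E-DT, 442 in the library labelled si-HNRNPC and 115 in si-NC. The immunoprecipitate was above all 3 cell libraries for 25 of 26 histones listed in all 5. The filter has a part in the count, because 19 of the 42 were under 1 FPKM in the input and entered through the immunoprecipitate. Of the 23 at or above 1 FPKM in the input, 21 were enriched. Among all genes at a mean of 1 FPKM in the 3 cell libraries, where 22% of 10262 were enriched, 19 of 21 histones were, with a median of 3.25. Of the 42, 11 are near-identical copies, so how reads were divided among them is uncertain.

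All 5 histone classes had higher sums in the immunoprecipitate. H3 genes summed to 369 FPKM in the immunoprecipitate and 3.14 in the input, H4 genes to 447 and 24.3, and H2A genes to 589 and 33.5. H2B genes summed to 414 and 190 FPKM and the 2 linker histones H1 to 138 and 46.0. Single genes showed the same: HIST1H3B was at 122 FPKM in the immunoprecipitate and 0.955 in the input (log2 ratio 5.97), HIST1H3C at 140.0 and 1.35 (5.91), and HIST1H2AH at 104 and 0.714 (5.94). The exceptions were HIST1H2BK, at 98.6 FPKM in the immunoprecipitate and 150.5 in the input, and HIST1H1C, at 76.0 and 44.4 FPKM, which are among the histones with the highest input level.

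Histone genes outside the clusters, whose mRNAs are mostly polyadenylated and whose products can replace the S-phase histones in chromatin, did not share this pattern. Which 3' ends their mRNAs carry in these cells was not tested. This list of 10 was added after the values were seen. Of these, 1 was enriched and 5 depleted, with a median of −1.17, against 24.2% and 36.9% of all genes. In a set of 10 genes these counts are not far from those shares. Their FPKM summed to 253 in the immunoprecipitate and 591 in the input. H2AFZ (histone H2A.Z) was at 12.3 FPKM in the immunoprecipitate and 131 in the input, and H1FX at 25.1 and 149. The centromeric histone CENPA was the enriched one, at 15.4 and 5.30 FPKM. SLBP, the protein that binds the histone stem-loop, had a depleted mRNA at 10.5 FPKM in the immunoprecipitate and 54.6 in the input.

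The stem-loop is shown for 4 clustered histones with an annotated 3' UTR, because these mRNAs were enriched with few runs of U. The search, made after the values were seen, was for a 6-base stem starting GGC and closing on a loop of 4 bases within 150 bases of the stop codon, on the transcript strand; capitals mark stem and loop. The windows are HIST1H2BL (chr6:27807477-27807504, minus strand), HIST1H3H (chr6:27810511-27810538, plus strand), HIST2H2BE (chr1:149886181-149886208, minus strand) and HIST2H2BF (chr1:149811878-149811905, minus strand), all on GRCh38.
HIST1H2BL: ccaaaGGCTCTTTTCAGAGCCactcact
HIST1H3H: ccaaaGGCTCTTTTCAGAGCCacccaca
HIST2H2BE: ccaaaGGCTCTTTTCAGAGCCacccacc
HIST2H2BF: ccaaaGGCTCTTTTCAGAGCCacttcag
It lay 26 (HIST1H2BL), 31 (HIST1H3H), 56 (HIST2H2BE) and 42 bases (HIST2H2BF) after the stop codon. Their annotated 3' UTRs were 82, 816, 1801 and 1537 bases long, so most of these models run well past the stem-loop. Runs of U were counted over the whole annotated 3' UTR, and which 3' ends the cells use was not tested. The pattern was found in 15 of 21 clustered histones with an annotated 3' UTR (71.4%) and in 15 of 10086 other genes (0.149%). Histones thus ran against the U-run relation: the 21 with a 3' UTR had a median of 1 run and a median log2 ratio of 3.20.

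The mRNAs of the translation and respiratory machinery lay at the other extreme. Of 82 cytosolic ribosomal protein mRNAs, 77 were depleted and none enriched, against 36.9% and 24.2% of all genes, with a median log2 ratio of −3.03. Together these mRNAs took 1.21% of the FPKM sum in the immunoprecipitate and 5.89% in the input, against 6.39% to 8.66% in the cell libraries. The immunoprecipitate was below all 3 cell libraries for 80 of the 82, and the input above all 3 for 29 and below all 3 for 15. RPL8 was at 14.1 FPKM in the immunoprecipitate and 325 in the input (log2 ratio −4.44), and RPS18, which has near-identical copies, at 32.2 and 717 (−4.43). The member nearest to parity was RPLP0, a stalk protein with near-identical copies (−0.48), which had no run of U in a 3' UTR of 74 bases. The paralogues RPL7L1 (−0.75), RPL22L1 (−0.64) and RPS27L (−0.65) had 10, 9 and 31 runs, against a median of 1 in the list. RPL14, also chosen after the values were seen, was depleted (−2.38) with 25 runs. Mitochondrial ribosomal proteins followed, with 62 of 78 depleted, 4 enriched and a median of −2.30. MRPS26 was at 1.05 FPKM in the immunoprecipitate and 37.9 in the input, while the enriched MRPL42, whose annotated 3' UTR holds 80 runs of U, was at 15.5 and 2.93 (log2 ratio 2.07).

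Nuclear-encoded subunits of oxidative phosphorylation were depleted in 70 of 75 cases and enriched in 1, against 36.9% and 24.2% of all genes, with a median of −2.82. ATP5I, a subunit of ATP synthase, was at 3.36 FPKM in the immunoprecipitate and 89.3 in the input, and UQCRH, of complex III, at 10.01 and 218. The enriched member was SDHC, a membrane anchor of complex II, at 14.9 and 6.31 FPKM, with 59 runs of U. The 13 mRNAs encoded in the mitochondrial genome had no enriched member and 12 depleted, with a median of −3.10. MT-CYB was at 480.3 FPKM in the immunoprecipitate and 6083 in the input, but at 462 in si-LY6E-DT, 980.3 in the library labelled si-HNRNPC and 333 in si-NC. MT-ND1 was at 261 FPKM in the immunoprecipitate and 3298 in the input, with 1029 to 1459.8 in the cell libraries. The input was above all 3 cell libraries for each of the 13. The immunoprecipitate was below all 3 for 7, among them MT-ND1, within their range for 4, such as MT-CYB, and above all 3 for 2. After quantile normalization their median was −1.20.

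Other abundant mRNAs of general cell function were mostly depleted, where 36.9% of all genes were depleted and 24.2% enriched. Proteasome subunits were depleted in 31 of 37 cases (median −2.41), with the base subunit PSMC3 at 5.43 FPKM in the immunoprecipitate and 102 in the input. The assembly chaperone PSMD5 was the enriched member, at 56.9 and 17.7 FPKM. Chaperonins and heat shock proteins were depleted in 22 of 23 cases with none enriched (median −2.58), and HSP90AB1 was at 91.3 FPKM in the immunoprecipitate and 994 in the input. Glycolytic enzymes were depleted in 14 of 20 cases (median −2.57): GAPDH was at 71.3 and 768 FPKM and triosephosphate isomerase TPI1 at 11.9 and 281. The enriched glycolytic gene was PFKFB3, which makes the activator of phosphofructokinase, at 19.97 FPKM in the immunoprecipitate and 2.65 in the input. Tubulins (10 of 11 depleted, none enriched, median −2.0) and actin and myosin genes (19 of 27 depleted, 1 enriched, median −1.74) included TUBB4B at 15.1 and 211 FPKM and the myosin light chain MYL9 at 1.65 and 42.5.

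Translation factors were more mixed than these lists, with 36 of 58 depleted (62.1%) and 9 enriched (15.5%), a median of −1.44. Among all genes the shares were 36.9% and 24.2%, so this list too leaned to depletion. EEF1B2, a nucleotide exchange subunit that has near-identical copies, was at 13.5 FPKM in the immunoprecipitate and 239 in the input. The repressor of cap-dependent translation EIF4EBP1 was depleted (4.10 and 68.4 FPKM), while its paralogue EIF4EBP2 was enriched (72.4 and 9.33 FPKM). The pair held 0 and 29 runs of U in its 3' UTRs. EIF5A2, a paralogue of the elongation factor EIF5A, was at 56.5 FPKM in the immunoprecipitate and 4.97 in the input (log2 ratio 3.27).

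Among RNA-binding proteins, the hnRNP family held no enriched mRNA, and 13 of 26 were depleted (median −1.02). RALY, the closest relative of HNRNPC, was at 1.79 FPKM in the immunoprecipitate and 20.4 in the input (log2 ratio −2.94), and HNRNPA2B1 at 24.3 and 177 (−2.82). HNRNPH2, at 1.40 and 52.3 FPKM, shares exons with a neighbour and is uncertain. Binders of U-rich or AU-rich RNA were near the shares of all genes (24.2% enriched, 36.9% depleted), with 5 of 24 enriched and 8 depleted; their median of −0.25 turned to 0.10 after centring and to 0.03 after quantile normalization. La (SSB), which binds the U tails of RNA polymerase III transcripts, was at 3.67 FPKM in the immunoprecipitate and 80.6 in the input, and CELF2 at 37.3 and 5.43 (log2 ratio 2.58). For the splicing factors (2 of 34 enriched, 12 depleted) the median of −0.13 turned to 0.21 after centring, 0.10 after quantile normalization and 0.09 after rescaling. They ranged from the Sm protein SNRPB (13.02 and 238 FPKM, shares exons) to the SR protein kinase SRPK1 (133 and 29.6 FPKM). Of 18 m6A genes 8 were enriched and 1 depleted (median 0.27), among them RBM15, which recruits the methyltransferase, at 19.1 FPKM in the immunoprecipitate and 3.19 in the input, and the reader YTHDF1 at 87.4 and 39.1. The catalytic subunit METTL3 was the depleted member, at 2.16 and 5.86 FPKM.

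A short list of mRNAs described as bound by HNRNPC was examined gene by gene. Of the 5 listed, 3 were enriched and 1 depleted (median 1.13), against 24.2% and 36.9% of all genes. With 5 genes, this count says little about the list as a whole. The oncogene MYC was at 34.3 FPKM in the immunoprecipitate and 1.496 in the input (log2 ratio 3.82). In the cell libraries MYC was at 3.22 FPKM (si-LY6E-DT), 45.8 FPKM (labelled si-HNRNPC) and 34.9 FPKM (si-NC), so the immunoprecipitate lay within the range of the cell libraries and the input below it. The growth factor receptor IGF1R was at 17.8 FPKM in the immunoprecipitate and 2.71 in the input (2.34), and the caspase inhibitor XIAP at 7.70 and 2.97 (1.13). In both the immunoprecipitate was above all 3 cell libraries. The amyloid precursor protein mRNA APP was neither enriched nor depleted (58.8 and 87.5 FPKM, −0.57). PLAU, the protease urokinase, which was placed in the list with less certainty, was depleted (14.7 and 75.1 FPKM, −2.28). The longest uridine runs in these 3' UTRs are given in capitals for comparison with their ratios: IGF1R (chr15:98963208-98963237, plus strand), XIAP (chrX:123912679-123912708, plus strand), APP (chr21:25881142-25881171, minus strand) and PLAU (chr10:73916603-73916632, plus strand), on GRCh38.
IGF1R: gatccaTTTTTTTTTTTTTTTTTTaggaca
XIAP: aaatactgTTTTTTTTTTTTTTaatttaaa
APP: ctttagagagaTTTTTTTTccatgactgca
PLAU: tgctggttgtcaTTTTTgcagtagagtcat
These 3' UTRs held 30 (IGF1R), 40 (XIAP), 3 (APP) and 5 (PLAU) runs of 5 or more U in 7088, 6798, 1120 and 932 bases. The printed runs are not mapped binding sites, and which part of each mRNA HNRNPC binds was not tested.

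Cell surface genes lay on both sides. Of 19 integrins and adhesion receptors 10 were enriched (24.2% of all genes) and 7 depleted (36.9% of all genes), with a median of 1.3 that turned to −0.40 when the minimum of 1 FPKM was asked of the input alone, a setting added after the data were seen. Caveolin CAV1 was at 228 FPKM in the immunoprecipitate and 8.12 in the input (log2 ratio 4.65), the collagen receptor subunit ITGA2 at 46.9 and 0.928 (4.64) and dystroglycan DAG1 at 37.2 and 0.223 (4.97). In these 3 genes the immunoprecipitate was above and the input below all 3 cell libraries, as with CAV1 at 106 FPKM in si-LY6E-DT, 43.4 in the library labelled si-HNRNPC and 101 in si-NC. The tetraspanin CD151 was depleted, at 5.48 FPKM in the immunoprecipitate and 53.6 in the input. Members with at least the median of 8 U runs had a median log2 ratio of 2.03 and those with fewer −1.68.

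Matrix and protease genes had 3 of 31 enriched (9.68%) and 14 depleted (45.2%), against 24.2% and 36.9% of all genes (median −0.88). The inhibitor TIMP1 was at 8.55 FPKM in the immunoprecipitate and 109 in the input, and the membrane metalloprotease MMP14 at 15.04 and 103. The sheddase ADAM9 was enriched, at 61.7 and 5.09 FPKM. In the endoplasmic reticulum list 6 of 24 (25%) were enriched, near the share of all genes, and 12 (50%) were depleted (median −0.90). Subunits of 1 complex went opposite ways. SEC61A1, the pore of the translocon, was at 60.3 FPKM in the immunoprecipitate and 9.15 in the input (log2 ratio 2.60), and its small partner SEC61B at 9.32 and 73.7 (−2.86). The chaperone HSPA5 (BiP) was depleted, at 43.3 and 526 FPKM, and the signal peptidase subunit SPCS3 enriched, at 172 and 27.4.

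Cholesterol synthesis enzymes had 6 of 24 enriched and 9 depleted (median −0.48), shares near the 24.2% and 36.9% of all genes. The sterol oxidase MSMO1 was at 333 FPKM in the immunoprecipitate and 35.5 in the input (log2 ratio 3.19). CYP51A1, which shares exons and is uncertain, was at 149 and 16.8 FPKM. Farnesyl diphosphate synthase FDPS (7.48 FPKM in the immunoprecipitate, 83.3 in the input) and the dehydrogenase NSDHL (1.65 and 24.3) were depleted. Enzymes with at least the median of 3 U runs had a median log2 ratio of 0.65 and the others −1.51.

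Inducible genes showed both directions within each programme, as did all genes, with 24.2% enriched and 36.9% depleted. Immediate early genes had 3 of 22 enriched (13.6%) and 8 depleted (36.4%). Their median of −0.01 turned to 0.33 after centring, 0.25 after quantile normalization and 0.21 after rescaling. The transcription factor KLF6 was at 35.1 FPKM in the immunoprecipitate and 5.39 in the input and the stress gene IER3 at 57.9 and 642. NF-kB targets and cytokines had 4 of 24 enriched (16.7%) and 10 depleted (41.7%), with a median of −0.59. PTGS2, the inducible cyclooxygenase, was at 33.7 FPKM in the immunoprecipitate and 3.23 in the input (log2 ratio 3.04), and the precursor of the NF-kB subunit p52, NFKB2, at 0.932 and 12.7 (−2.83). The ATF4 and unfolded protein response list had 5 of 24 enriched (20.8%) and 14 depleted (58.3%), with a median of −1.21. ATF4 itself was at 11.2 FPKM in the immunoprecipitate and 176 in the input. The cystine transporter SLC7A11 was at 127 and 7.18 FPKM (log2 ratio 3.97). Interferon-stimulated genes had 1 of 16 enriched (6.25%) and 11 depleted (68.75%), with a median of −1.18. The small membrane protein IFITM3 was at 13.5 FPKM in the immunoprecipitate and 278 in the input. Apoptosis regulators had 6 of 22 enriched (27.3%) and 5 depleted (22.7%), with a median of 0.16. The inhibitor of apoptosis BIRC6 was at 9.29 FPKM in the immunoprecipitate and 1.39 in the input, and the BH3-only protein BAD at 1.74 and 27.8.

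Among cell cycle genes, 4 of 30 S-phase genes were enriched and 19 depleted (median −1.68), against 24.2% and 36.9% of all genes, with the helicase subunit MCM7 at 4.66 FPKM in the immunoprecipitate and 50.8 in the input and the transcription factor E2F1 at 2.50 and 24.97. The S-phase list and the clustered histones, which are transcribed in the same phase, thus had medians on opposite sides of the all-gene median. Of 33 G2/M genes 17 were depleted and 5 enriched (median −1.17). The mitotic activator CDC20 was at 6.71 FPKM in the immunoprecipitate and 78.1 in the input, and the cytokinesis regulator ECT2 at 37.5 and 4.33 (log2 ratio 2.85).

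Zinc finger genes named ZNF, many of them KRAB repressors, were the list with the most members, 319 tested of 406. Of these, 108 were enriched and 55 depleted, with a median of 0.42, against 24.2% and 36.9% of all genes. The filter has a part here as well, because 43 of the 108 were under 1 FPKM in the input; of the 249 at or above it 65 were enriched. Asking 1 FPKM of the input alone, the median was −0.04 for the ZNF genes and −0.57 for all genes. With the minimum asked of the 3 cell libraries, 94 of 328 were enriched (22% of all genes there) and the median was 0.16. ZNF805 was at 24.7 FPKM in the immunoprecipitate and 0.270 in the input, ZNF699 at 13.4 and 0.0590, and ZNF428 at 0.600 and 32.6. In the 314 with a 3' UTR, those with at least the median of 5 U runs had a median log2 ratio of 1.04 and those with fewer −0.35.

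**Figure D4:**
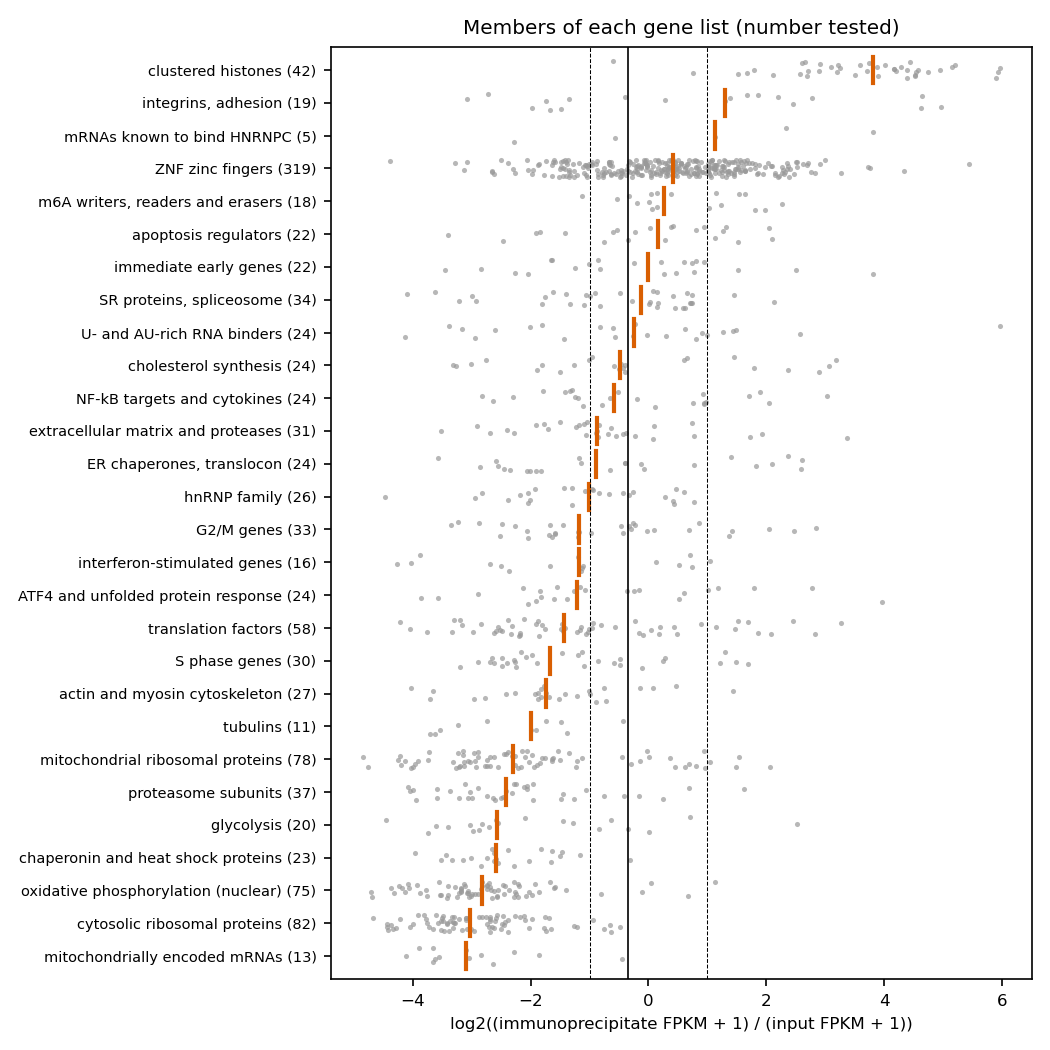
Log2 ratio of immunoprecipitate over input for the members of each gene list with at least 5 tested (grey points, number tested in brackets) and the list median (orange bar); the solid line is the median of all 10284 genes (−0.34) and the dashed lines mark 2-fold. Medians run from 3.81 in clustered histones to −3.10 in mitochondrially encoded mRNAs, and most lists between them hold members on both sides.

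The lists followed the number of U runs in their 3' UTRs, with the histones apart. Across 24 lists with at least 15 members that have a 3' UTR, without the histones, rho between the median number of runs and the median log2 ratio was 0.86; the lists share some genes and the same libraries, so this is a description. With the clustered histones it was 0.69 over 25 lists. Within the lists rho between runs and ratio was positive in 24 of 25, from 0.20 in the hnRNP family to 0.83 in glycolysis, and negative only in the clustered histones (−0.45, 21 genes).

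**Figure D5:**
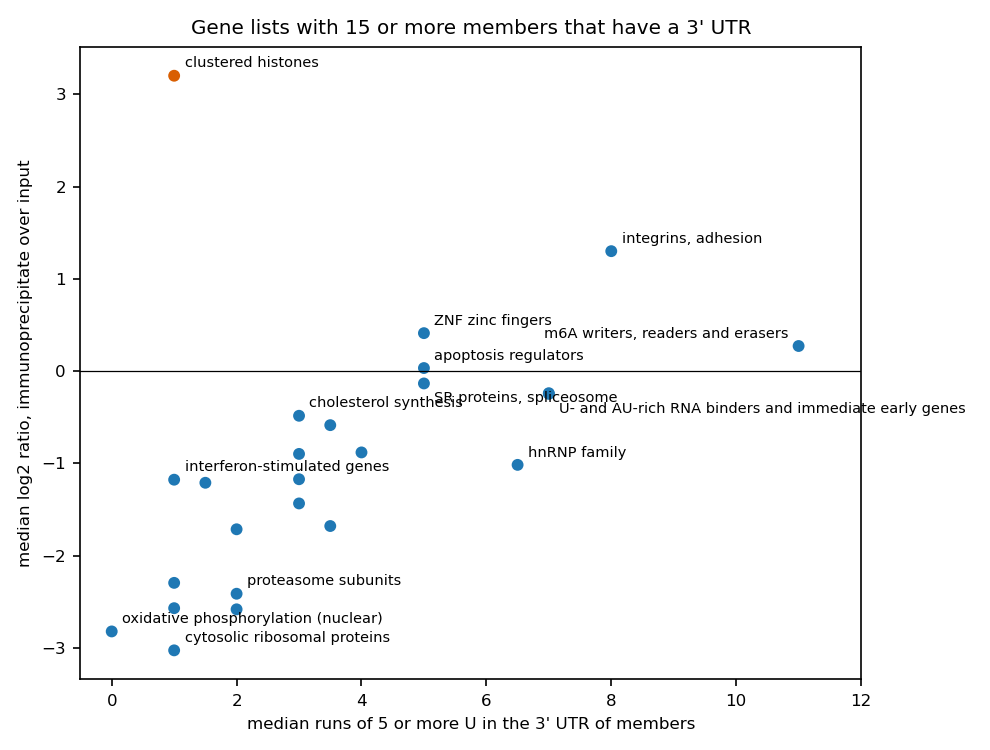
Median log2 ratio of immunoprecipitate over input (y axis) against the median number of runs of 5 or more U in the 3' UTRs (x axis) of each list with at least 15 members that have a 3' UTR; each point is a list. Blue points climb with the number of runs from oxidative phosphorylation (0 runs, −2.82) to adhesion receptors (8 runs, 1.3), the m6A genes with the most runs lie lower (11 runs, 0.27), and the orange point for clustered histones (1 run, 3.20) lies far above them.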

How the data were processed

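Per the file headers, the deposited values are FPKM per gene, in a separate file for each library. Tools given in the submitters' processing notes are HISAT2 2.1.0, StringTie 1.3.3, cutadapt 1.17 and FastQC 0.11.7, with GRCh37 as build and no settings. FPKM divides by gene length and library total, and StringTie can divide reads among overlapping models. The low values show no whole-read steps, so depth, counting intervals and floors are unknown and no count test was used.

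The pair was compared as log2((immunoprecipitate FPKM + 1)/(input FPKM + 1)) for genes with a mean of at least 1 FPKM; a count of genes uses 2-fold as a rule of size. Transcript features and sequences came from GENCODE 29 on GRCh38, with 1 transcript per gene by APPRIS rank; 10253 of 10284 tested IDs matched, 10222 had a coding transcript and 97 of those had no 3' UTR. No coordinates were converted. Genes sharing exons on the same strand (983 tested) and genes of which at least 50% of 32-base words recur in another gene (471) are called uncertain.

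Named genes are HNRNPC, the 12 highest and 12 lowest ratios at a mean of at least 5 FPKM (also without exon sharing), all listed mRNAs known to be bound by HNRNPC, up to 4 extreme members of each other list at that level and 2 genes on each side of each threshold. Examples beyond this rule were chosen after their values were seen: MRPL42, SDHC, PSMD5, PFKFB3, EIF4EBP2, EIF5A2, CELF2, SRPK1, METTL3, RPLP0, RPL7L1, RPL22L1, RPS27L and the histones not among the 12 highest. The members and the 33 gene lists were chosen with earlier results of these data known. Some genes are not reported here. Alternatives were other pseudocounts, filters, scalings, fold thresholds, left-out genes and the longest transcript. The computations ran on pandas 2.3.3, numpy 2.4.6, matplotlib 3.10.9 and Python 3.11.15, and the ratio code was tested on simulated data.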

Additional observations from a re-analysis of the deposited data

How the results depend on the processing

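No paired analysis was possible because each group holds 1 library. A ratio or count is said to move at 1.5-fold and a correlation at 0.1. With a pseudocount of 5, the enriched genes numbered 1520 and the depleted 2238, and the medians were −2.12 for oxidative phosphorylation and 2.38 for clustered histones, which had 4.72 with a pseudocount of 0.1. A filter of 5 FPKM left 2394 depleted genes. After quantile normalization the median of mitochondrially encoded mRNAs was −1.20. At 4-fold, 956 genes were enriched and 1750 depleted. Asking 1 FPKM of the input, a setting added after the data were seen, as were filtering on the cell libraries, leaving out copies and the longest transcript, gave clustered histones 3.22 and turned adhesion receptors to −0.40; the cause was not tested. The other 21 of 26 counts and all 30 correlations did not move; rho of U runs ranged from 0.67 to 0.74. Of 1518 values for 143 named genes, 125 moved and none turned sign among called genes; of 308 list medians 15 moved. Leaving out a replicate was not possible. A single library a side and unknown depth limit every ratio, most where the input is under 1 FPKM.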

Other observations

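Some genes went against the relation between U runs and the ratio. The genes in this paragraph were chosen after their values were seen, as the 8 most extreme on each side among genes with a mean of at least 5 FPKM that share no exons and are no copies. Of 84 enriched genes whose 3' UTR held no run of 5 U, 10 were histones. Among the rest, the nuclear import receptor TNPO1 was at 94.8 FPKM in the immunoprecipitate and 2.44 in the input, and PAN3, a subunit of a deadenylase, at 38.4 and 0.598 FPKM. The transcription factor NFIC (26.9 FPKM in the immunoprecipitate, 1.68 in the input), the kinase GSK3B (54.05 and 7.31) and the nuclear receptor NR2C2 (11.9 and 0.360) showed the same. Their annotated 3' UTRs were short in the transcript used, at 278 bases in TNPO1, 17 in PAN3, 198 in NFIC, 102 in GSK3B and 341 in NR2C2. Whether the cells use longer 3' UTRs for these genes was not tested.

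On the other side, some genes with many runs of U were depleted. The ribosomal protein RPL14 (7.91 FPKM in the immunoprecipitate, 45.5 in the input), the ATP synthase subunit ATP5A1 (4.74 and 20.9) and C14orf166 (4.22 and 33.97), a component of a tRNA ligase complex, were depleted with 25, 30 and 21 runs. The annotated 3' UTRs of RPL14 and C14orf166 were 6355 and 6175 bases long, and which 3' ends the cells use was not tested.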
